A study of Homo sapiens with 9 samples.

Results

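The interferon response genes described here are 44 genes that cells switch on, or use to pass on the signal, when they meet an interferon. They were selected by name, and all probe sets whose platform gene symbol is 1 of these names were taken from the deposited table, with RIGI accepted under its older symbol. This gave 72 probe sets for 43 of the genes, of 54675 probe sets and 19775 genes in all. STAT2 was not analysed here.

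Their RNA was compared in 3 human breast cancer cell lines with Affymetrix U133 Plus 2.0 microarrays. Each line has 3 arrays, called technical replicates in the labels. MDA-MB-231/GFP/Neo is estrogen receptor (ER) negative, carries green fluorescent protein (GFP), is resistant to the antibiotic G418 and is a single clone, clone 10. ZR-75-1/GFP/puro is ER positive and carries GFP and puromycin resistance. B6TC is GFP positive and estrogen-independent, and most of its cells resisted both puromycin and G418. The labels describe it as a fusion of the other lines. It was grown from 1 tumor of cells recovered from the bone marrow of 1 nude mouse, which had received MDA-MB-231/GFP/Neo cells at an orthotopic site and ZR-75-1/GFP/puro cells by intracardiac injection. B6TC cells were selected with G418 when the line was set up from the tumor. All lines thus carried GFP, were grown in the same serum-containing medium, and no interferon treatment is named for any of them. The question was where a line derived from 2 parental lines stands between or outside their levels. The p-values measure the spread between arrays of a line and not between cultures.

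Interferons are secreted proteins that warn cells of infection. Type I and III interferons act through receptors and JAK kinases to form a complex, with IRF9 as a DNA-binding part, that binds the interferon-stimulated response element (ISRE), while interferon gamma acts on genes through the gamma-activated site (GAS). The genes switched on detect foreign RNA, block viral entry, translation and budding, or cut proteins for antigen presentation, and many cancer lines keep some of them active without added interferon.

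The sequence that most of these genes share lies just before their start. Promoter sequences of RefSeq on GRCh38.p14, each running from 250 bases before a gene's start to 50 after it, were found for 34 of the 44 genes, in 43 windows. The ISRE core was searched as GAAANNGAAA and the GAS as TTCNNNGAA, each on both strands and with overlapping matches kept. The ISRE core occurred in 25 of the 34 genes (73.5%), against 1195 of 27305 genes with a promoter window (4.38%), and the GAS in 11 (32.4%) against 2560 (9.38%). As the genes are named for their response to interferon, this describes the members and is no test. The 6 stretches below belong to genes with some of the largest differences reported further on and hold the ISRE core, which is in capitals (its reverse complement where the element points the other way). They run 5′ to 3′ along the gene, from 140 bases before its start to the first 10 bases after it.

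GBP1 (chr1:89065199-89065348, minus strand): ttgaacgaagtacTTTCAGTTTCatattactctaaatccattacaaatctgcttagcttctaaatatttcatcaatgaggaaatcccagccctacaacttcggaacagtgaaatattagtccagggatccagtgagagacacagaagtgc
IFIT3 (chr10:89332389-89332538, plus strand): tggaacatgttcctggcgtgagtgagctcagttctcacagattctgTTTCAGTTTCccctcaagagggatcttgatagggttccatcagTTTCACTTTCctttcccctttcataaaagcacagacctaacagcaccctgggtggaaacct
IFI44 (chr1:78649649-78649798, plus strand): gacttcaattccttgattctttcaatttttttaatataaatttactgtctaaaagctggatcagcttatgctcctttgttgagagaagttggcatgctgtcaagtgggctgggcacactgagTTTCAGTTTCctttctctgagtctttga
IFITM1 (chr11:313900-314049, plus strand): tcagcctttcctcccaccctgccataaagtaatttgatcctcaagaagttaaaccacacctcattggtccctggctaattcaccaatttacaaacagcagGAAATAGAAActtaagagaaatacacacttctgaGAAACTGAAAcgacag
IFIH1 (chr2:162318675-162318824, minus strand): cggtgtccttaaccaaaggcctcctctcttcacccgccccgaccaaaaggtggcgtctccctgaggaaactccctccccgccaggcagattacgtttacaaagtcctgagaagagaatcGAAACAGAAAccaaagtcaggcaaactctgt
BST2 (chr19:17405621-17405770, minus strand): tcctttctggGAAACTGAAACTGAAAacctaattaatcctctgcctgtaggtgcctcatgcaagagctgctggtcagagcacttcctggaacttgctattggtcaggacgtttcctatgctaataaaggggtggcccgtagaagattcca

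In BST2 2 overlapping matches make up the capitals, and in IFITM1 the second match crosses the gene's start. The first 4 of these genes were called higher in B6TC relative to ZR-75-1, and IFIH1 and BST2 were called lower. Over all members called higher in B6TC relative to ZR-75-1, 12 of the 16 with a window held the ISRE core, as did 8 of the 9 called lower. The element was thus present in genes that moved in either direction. PARP9 and DTX3L, which lie head to head, share 1 match in overlapping windows.

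**Figure D1:**
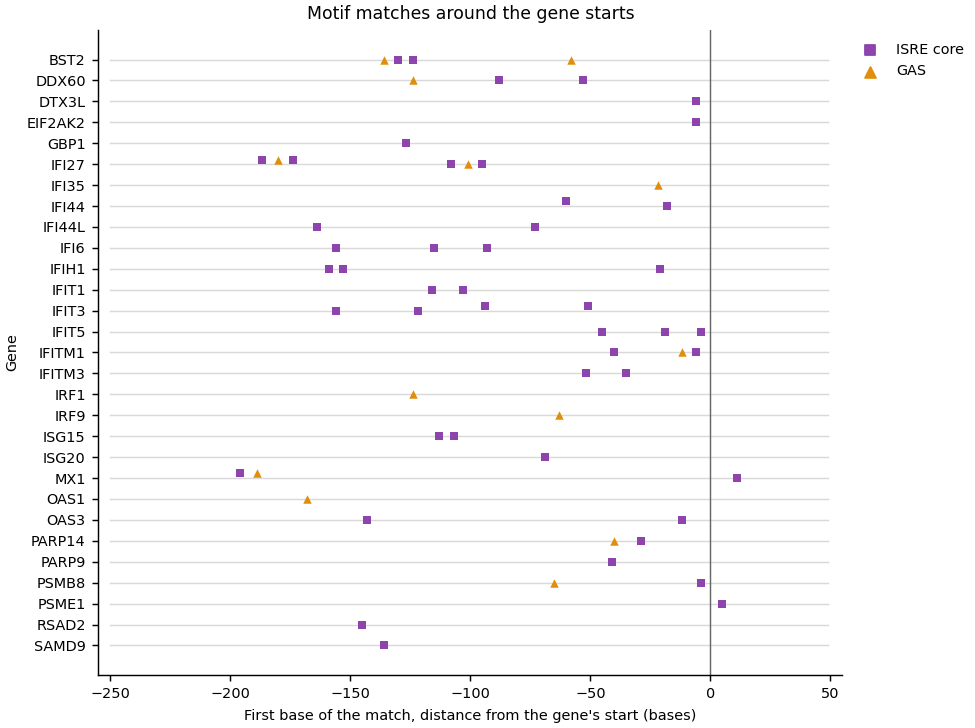
Position of each match to the ISRE core (squares) and the GAS (triangles) in the promoter windows of the 29 members with a match, by distance in bases of its first base from the gene's start. Points set slightly higher belong to another start of the same gene. Most ISRE core matches lie before the start, and those of MX1 at 11 and PSME1 at 5 lie after it.

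Of the 43 genes, 34 passed the filter on low values, a log2 value of 6 or more on at least 3 arrays, and were tested. For a gene with several probe sets, the brightest on average stands for it. Values and differences below are on the log2 scale of the deposited values unless a fold is named, a difference of 1 being a 2-fold change, and probe sets of different genes are not compared in level. Calls are at an adjusted p of at most 0.05 (Benjamini-Hochberg) from limma, fitted to every probe set that passed. In bulk RNA, fewer cells with a transcript and less of it per cell cannot be told apart. Values below 6 lie near the background of such arrays, where differences may be understated. Of the tested members, the mean was below 6 for 3 on the B6TC arrays, 6 on those of MDA-MB-231 and 11 on those of ZR-75-1.

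The line labels were checked against markers. All 5 luminal markers (ESR1, GATA3, KRT19, CDH1, EPCAM) were called lower and all 5 mesenchymal markers (VIM, CAV1, EGFR, AXL, ETS1) higher in B6TC and MDA-MB-231 than in ZR-75-1. Between B6TC and MDA-MB-231 the luminal markers KRT19 and EPCAM were called higher in B6TC, by 0.72 and 0.67, the median over the 5 was 0.671, and no mesenchymal marker was called. The part of this in the members' differences was not tested. The third B6TC array stood apart, where 4 of the 5 luminal markers exceeded their average on the remaining B6TC arrays, with a median over the 5 of 0.816 and CDH1 by 3.57. On that array 13 interferon response genes lay above and 20 below such an average, with a median of -0.02 and a range of -0.36 to 0.22. Without it no member's difference between B6TC and a parental line moved by more than 0.12 and 1 call changed, that of IRF2 given below. Probe sets of 9 leukocyte marker genes stayed between 2.07 and 5.47 on all arrays and none passed the filter. Their summed log2 level was 60.7 to 62.2 in B6TC, 61.0 to 62.1 in MDA-MB-231 and 60.6 to 61.7 in ZR-75-1.

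Between B6TC and MDA-MB-231, 16 of the 34 tested members were higher in B6TC (47.1%) and 8 were lower (23.5%). Over all 10751 genes tested, 36.5% were called higher and 28.5% lower. The members' median difference was 0.05, beside 0.04 over all genes, and their median absolute difference was 0.486, beside 0.252. At a fold of 2 or more, 2 members were higher (2.71% of all genes were) and 1 was lower (1.04% of all genes). The members thus had no common direction between these lines.

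Against ZR-75-1, 21 members were higher in B6TC (61.8%), where 42.8% of all genes were, and 12 were lower (35.3%), where 41.6% were. At 2-fold or more the counts were 13 higher (38.2% of the members, 17.6% of all genes) and 5 lower (14.7%, and 14.0% of all genes). The median difference was 0.71 in favor of B6TC, beside -0.00498 over all genes. In MDA-MB-231 against the same ZR-75-1 arrays, 21 members were higher (42.5% of all genes) and 11 lower (41.9% of all genes), with 14 at least 2-fold higher (16.3% of all genes) and 7 at least 2-fold lower (15.6% of all genes). The median there was 0.39, beside -0.000657 over all genes. These 2 comparisons share the ZR-75-1 arrays and are not independent. A member that passed the filter through the line where it is high was bound to differ, so these counts are a description.

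**Figure D2:**
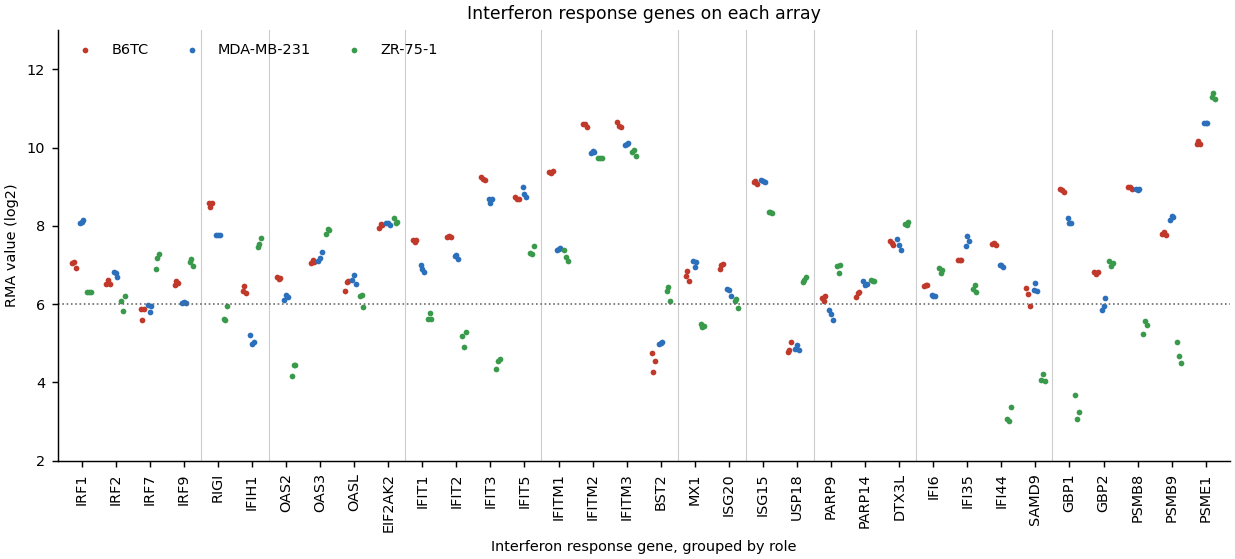
RMA values (log2) of the 34 tested interferon response genes on each of the 9 arrays, grouped by role, with 1 point per array and the dotted line at the filter level of 6. The ZR-75-1 arrays of GBP1, IFIT3, IFI44, PSMB8 and PSMB9 lie below 6 while those of B6TC and MDA-MB-231 lie above it, and for IFIH1, IRF7, USP18 and BST2 the ZR-75-1 arrays are the highest.

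Among the transcription factors, IRF1, which interferon gamma induces and which drives antigen presentation genes, was lower in B6TC relative to MDA-MB-231. Its values were 7.04, 7.08 and 6.93 on the B6TC arrays, 8.07, 8.10 and 8.14 in MDA-MB-231 and 6.30, 6.32 and 6.32 in ZR-75-1. The lines did not overlap and B6TC lay between the parental lines. The difference from MDA-MB-231 was -1.09 (SE 0.0489, limma adjusted p = 1.16e-07), a 2.12-fold decrease, and that from ZR-75-1 was 0.70 (SE 0.0489, limma adjusted p = 2.3e-07). The other tested IRF1 probe set gave -0.62 and 0.83.

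IRF9, the DNA-binding partner of the STATs, had the opposite order of the parental lines, at 6.50, 6.59 and 6.55 on the B6TC arrays, 6.03, 6.06 and 6.02 on those of MDA-MB-231 and 7.07, 7.15 and 6.99 on those of ZR-75-1. IRF7, which amplifies type I interferon production, was lower than in ZR-75-1 by 1.34 in B6TC and by 1.21 in MDA-MB-231. The difference between those lines was -0.13 with a 95% interval of -0.38 to 0.11. All IRF7 values of those lines lay below 6, so the gene was tested through ZR-75-1 and these differences may be understated. IRF2, an antagonist of IRF1, was 0.51 above ZR-75-1 in B6TC. Its difference of -0.23 from MDA-MB-231 was called at a limma adjusted p of 0.042, but the call was lost in 6 of the 9 fits that left out 1 array. The factors therefore did not move as a group.

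The RNA sensors RIGI and IFIH1 (MDA5) detect viral double-stranded RNA and signal through MAVS. RIGI read 8.58, 8.49 and 8.60 in B6TC, 7.75 on every MDA-MB-231 array, and 5.61, 5.61 and 5.95 in ZR-75-1. B6TC was above both parental lines, by 0.80 from MDA-MB-231 (SE 0.0836, limma adjusted p = 1.9e-05) and by 2.83 from ZR-75-1 (SE 0.0836, limma adjusted p = 3.06e-10). The probe set used for RIGI may bind several transcripts, and its MDA-MB-231 values were identical (SD 0), which is no measure of their spread. The other tested RIGI probe sets gave 1.39 and 0.53 against MDA-MB-231, so the direction held while the size differed. IFIH1 read 6.32, 6.46 and 6.28 on the B6TC arrays, 5.20, 4.98 and 5.03 on those of MDA-MB-231 and 7.47, 7.55 and 7.69 on those of ZR-75-1. B6TC lay between, 1.28 above MDA-MB-231 (2.43-fold, SE 0.0781, limma adjusted p = 6.38e-07) and 1.21 below ZR-75-1 (2.32-fold, limma adjusted p = 1.21e-07). The ZR-75-1 values of RIGI and the MDA-MB-231 values of IFIH1 lay below 6, so differences from them may be understated. These partner sensors were thus higher in opposite parental lines, and both were higher in B6TC relative to MDA-MB-231.

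OAS enzymes make a second messenger that activates RNase L, OASL is a relative without that activity, and PKR (EIF2AK2) stops translation on double-stranded RNA. OAS2 read 6.68, 6.65 and 6.66 on the B6TC arrays, 6.10, 6.22 and 6.19 on those of MDA-MB-231 and 4.16, 4.46 and 4.43 on those of ZR-75-1, with B6TC 0.50 and 2.32 above the parental lines. The difference from ZR-75-1 may be understated, as those values lay below 6. OAS3 went the other way against ZR-75-1, at -0.79 in B6TC, and its difference of -0.14 from MDA-MB-231 had an interval of -0.28 to 0.01. That difference was called without the first MDA-MB-231 array, at a limma adjusted p of 0.0277. OASL was 0.37 higher in B6TC relative to ZR-75-1. EIF2AK2 was the only tested member called in no comparison, with values from 7.95 to 8.19 over all arrays and a difference from ZR-75-1 in B6TC of -0.11 (95% interval -0.22 to 0.00). Without the second ZR-75-1 array this difference passed, at a limma adjusted p of 0.042. The family thus divided between OAS2 and OASL, higher than in ZR-75-1, and OAS3, lower.

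The IFIT genes encode proteins that bind foreign RNA and block its translation. All 4 were higher in B6TC and MDA-MB-231 than in ZR-75-1, and 3 were higher in B6TC relative to MDA-MB-231. Over all genes the shares called higher in these comparisons were 42.8%, 42.5% and 36.5%. IFIT3 read 9.24, 9.21 and 9.18 on the B6TC arrays, 8.68, 8.58 and 8.67 on those of MDA-MB-231 and 4.33, 4.55 and 4.59 on those of ZR-75-1. It was 4.72 above ZR-75-1 in B6TC (26.3-fold, SE 0.0674, limma adjusted p = 2.44e-12) and 4.15 above it in MDA-MB-231 (17.8-fold, limma adjusted p = 5.93e-12). IFIT1 read 7.63, 7.58 and 7.65 on the B6TC arrays, 6.99, 6.90 and 6.82 on those of MDA-MB-231 and 5.63, 5.76 and 5.63 on those of ZR-75-1, so that the lines did not overlap. B6TC was 0.72 above MDA-MB-231 at IFIT1 (SE 0.0579, limma adjusted p = 3.32e-06). IFIT2 was 0.52 above it and IFIT3 0.56. The ZR-75-1 means of IFIT1, IFIT2 and IFIT3 lay below 6, so their differences from ZR-75-1 may be understated.

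For IFIT2 and IFIT3 the excess over MDA-MB-231 rested on the probe set. Their other tested probe sets each gave -0.21 in that comparison and were not called, with intervals of -0.47 to 0.05 and -0.55 to 0.14, while against ZR-75-1 they gave 1.09 and 1.99 and were called. With the mean of a gene's tested probe sets, IFIT2 was no longer called against MDA-MB-231 (0.15, limma adjusted p = 0.171). IFIT5 differed from MDA-MB-231 by -0.14 (interval -0.31 to 0.03).

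**Figure D3:**
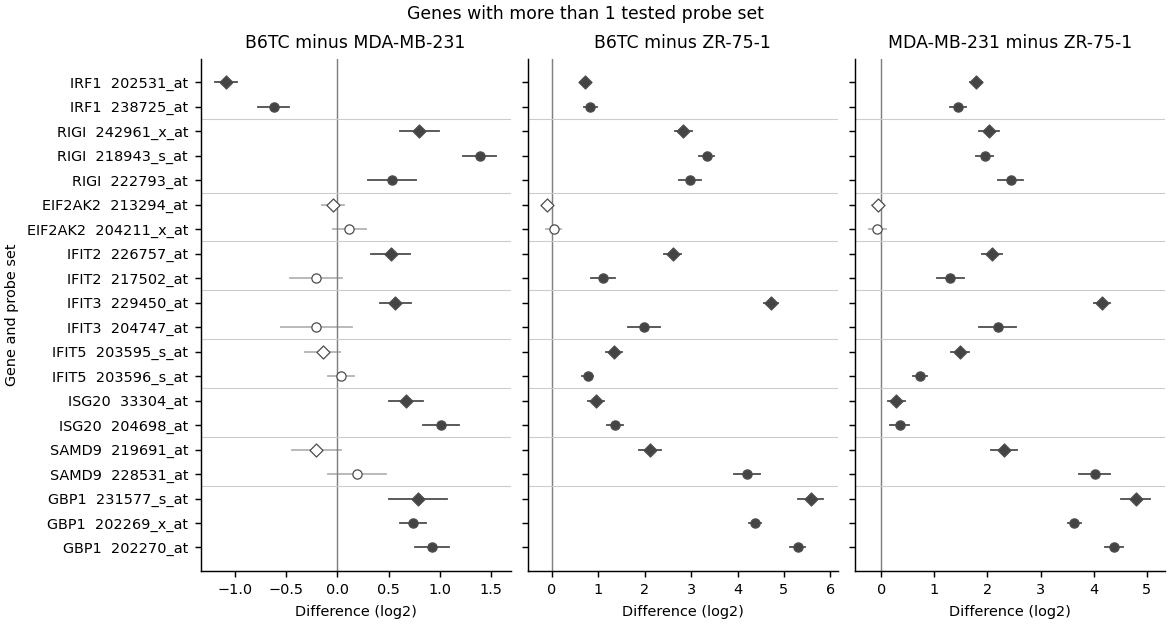
Log2 differences in the 3 comparisons for every tested probe set of the 9 members with more than 1, with 95% intervals as bars. Diamonds mark the probe set that represents the gene, circles the others, and open symbols differences that were not called. IFIT2 and IFIT3 differ in sign between probe sets against MDA-MB-231, and the probe sets of RIGI and GBP1 lie on the same side of 0 throughout.

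No member had probe sets called in opposite directions in any comparison, among the 9 members with several tested probe sets. Among 4955 genes with several, 956, 423 and 535 did in the comparisons of B6TC with MDA-MB-231, of B6TC with ZR-75-1 and of the parental lines.

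The IFITM proteins sit in cell membranes and hinder viral entry. IFITM1 had the largest excess of B6TC over MDA-MB-231 of all tested members. Its values were 9.38, 9.36 and 9.40 on the B6TC arrays, 7.38, 7.41 and 7.44 on those of MDA-MB-231 and 7.38, 7.21 and 7.10 on those of ZR-75-1. B6TC was clear of both parental lines, whose ranges met at 7.38. The difference was 1.97 from MDA-MB-231 (3.93-fold, SE 0.0658, limma adjusted p = 2.04e-08) and 2.15 from ZR-75-1 (4.44-fold, SE 0.0658, limma adjusted p = 3.9e-10). The difference of 0.18 between the parental lines was called, but not in 4 of the 9 fits that left out 1 array.

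IFITM2 read 10.60, 10.61 and 10.54 on the B6TC arrays, 9.85, 9.92 and 9.89 on those of MDA-MB-231 and 9.73, 9.75 and 9.72 on those of ZR-75-1. IFITM3 read 10.66, 10.54 and 10.53, then 10.07, 10.10 and 10.11, then 9.89, 9.94 and 9.79. All 3 genes were highest in B6TC, IFITM2 by 0.69 (SE 0.0421, limma adjusted p = 6.31e-07) and IFITM3 by 0.48 over MDA-MB-231. The genes are close copies of each other and their probe sets may bind more than 1 transcript, so the values of each are uncertain. A probe set annotated to both IFITM2 and IFITM1, which was not counted, read 8.94, 8.98 and 8.99 on the B6TC arrays, 7.33, 7.37 and 7.37 on those of MDA-MB-231 and 6.76, 6.48 and 6.57 on those of ZR-75-1.

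Tetherin (BST2), which holds budding virus on the cell surface, ran against the IFITM genes. It read 4.74, 4.25 and 4.54 on the B6TC arrays, 4.99, 5.00 and 5.03 on those of MDA-MB-231 and 6.33, 6.43 and 6.08 on those of ZR-75-1. B6TC was below both parental lines, by 0.49 (SE 0.118, limma adjusted p = 0.00423) and by 1.77 (SE 0.118, limma adjusted p = 1.65e-07). The B6TC and MDA-MB-231 values were below the filter level, so the gene was tested through ZR-75-1.

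Of the other antiviral effectors, MX1, a GTPase that traps viral particles, was 1.27 higher in B6TC relative to ZR-75-1 and 0.33 lower than in MDA-MB-231. The ZR-75-1 mean of MX1 was 5.45, so the difference from that line may be understated. ISG20, an exonuclease, read 6.90, 7.01 and 7.04 on the B6TC arrays, 6.38, 6.37 and 6.21 on those of MDA-MB-231 and 6.07, 6.13 and 5.89 on those of ZR-75-1. It was higher in B6TC relative to MDA-MB-231 by 0.67 (SE 0.0745, limma adjusted p = 2.97e-05), and the other probe set gave 1.01.

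ISG15, a ubiquitin-like tag, and USP18, the protease that removes it and dampens the type I receptor, were not called between B6TC and MDA-MB-231 and parted against ZR-75-1. ISG15 read 9.11, 9.15 and 9.06 on the B6TC arrays, 9.19, 9.15 and 9.11 on those of MDA-MB-231 and 8.36, 8.35 and 8.33 on those of ZR-75-1. The difference between the first lines was -0.04 (interval -0.14 to 0.06). USP18 read 4.77, 4.84 and 5.02, then 4.85, 4.96 and 4.82, then 6.57, 6.61 and 6.69. It was 1.75 lower than in ZR-75-1 in B6TC and MDA-MB-231, where ISG15 was 0.76 and 0.80 higher. All USP18 values of B6TC and MDA-MB-231 lay below 6, so USP18 was tested through ZR-75-1. It was thus bound to be lower in those lines, and its differences may be understated.

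PARP9 and its partner DTX3L, which modify histones and viral proteins, were lower in B6TC relative to ZR-75-1 by 0.78 and 0.49, and PARP9 was 0.42 higher than in MDA-MB-231. PARP14 read 6.18, 6.28 and 6.32 on the B6TC arrays, 6.60, 6.50 and 6.51 on those of MDA-MB-231 and 6.61, 6.59 and 6.59 on those of ZR-75-1, below both parental lines by 0.28 and 0.34. All 3 members of this group were thus lower in B6TC relative to ZR-75-1, as were 41.6% of all genes.

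Among interferon-induced genes of less defined role, IFI44 read 7.53, 7.57 and 7.52 on the B6TC arrays, 6.99, 6.99 and 6.95 on those of MDA-MB-231 and 3.08, 3.02 and 3.38 on those of ZR-75-1. It was above both parental lines, by 0.56 (SE 0.0826, limma adjusted p = 0.000197) and by 4.38 (20.8-fold, SE 0.0826, limma adjusted p = 1.43e-11), and was 14.1-fold higher in MDA-MB-231 than in ZR-75-1 (limma adjusted p = 3.7e-11). SAMD9 was 2.11 higher in B6TC relative to ZR-75-1 by its brighter probe set and 4.20 by the other. The ZR-75-1 mean of the brighter probe set was 4.10, so its difference may be understated. Against MDA-MB-231 the brighter probe set gave -0.21 (interval -0.45 to 0.03), which was called without the first B6TC array (-0.31, limma adjusted p = 0.0278). IFI35 and IFI6 lay between the parental lines, IFI35 higher in MDA-MB-231 and IFI6 higher in ZR-75-1.

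The guanylate-binding proteins act against intracellular pathogens and respond strongly to interferon gamma. GBP1 read 8.94, 8.90 and 8.88 on the B6TC arrays, 8.21, 8.08 and 8.08 on those of MDA-MB-231 and 3.68, 3.07 and 3.25 on those of ZR-75-1, all 3 ZR-75-1 values being near background. The ZR-75-1 values of IFI44 and IFIT3 were near it too, so the folds of these genes over ZR-75-1 may be understated and are not ranked. The difference from ZR-75-1 was 5.57 in B6TC (47.6-fold, SE 0.125, limma adjusted p = 4.54e-11) and 4.79 in MDA-MB-231 (27.6-fold, SE 0.125, limma adjusted p = 1.26e-10), and B6TC was 0.79 above MDA-MB-231 (SE 0.125, limma adjusted p = 0.000332). The other GBP1 probe sets gave 0.74 and 0.92 in the last comparison. GBP2 was, like GBP1, higher in B6TC relative to MDA-MB-231 but parted from it against ZR-75-1. It read 6.82, 6.78 and 6.83 on the B6TC arrays, 5.85, 5.95 and 6.16 on those of MDA-MB-231 and 7.11, 6.98 and 7.06 on those of ZR-75-1. B6TC was 0.82 above MDA-MB-231 at GBP2 (SE 0.0744, limma adjusted p = 7.3e-06) and 0.24 below ZR-75-1.

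PSMB8 and PSMB9 are catalytic subunits of the immunoproteasome, which cuts peptides for antigen presentation, and PSME1 is part of its activator. PSMB8 read 8.99, 9.0 and 8.94 on the B6TC arrays, 8.94, 8.92 and 8.93 on those of MDA-MB-231 and 5.24, 5.57 and 5.46 on those of ZR-75-1, which was 11.7-fold lower than B6TC (3.55, SE 0.0733, limma adjusted p = 2.66e-11) and 11.4-fold lower than MDA-MB-231 (3.51, limma adjusted p = 2.98e-11). PSMB9 read 7.79, 7.84 and 7.78 on the B6TC arrays, 8.15, 8.25 and 8.22 on those of MDA-MB-231 and 5.02, 4.67 and 4.49 on those of ZR-75-1. It was 3.08 higher in B6TC relative to ZR-75-1 (8.43-fold, SE 0.11, limma adjusted p = 1.21e-09) and 0.41 lower than in MDA-MB-231, which was itself 11.2-fold above ZR-75-1 (3.48, SE 0.11, limma adjusted p = 4.74e-10). The ZR-75-1 values of PSMB8 and PSMB9 lay below 6, so their folds over ZR-75-1 may be understated. For PSMB8 the difference from MDA-MB-231 was 0.04, with an interval of -0.12 to 0.21. PSME1 parted from PSMB8 and PSMB9 against ZR-75-1, where it was lower, and read 10.09, 10.16 and 10.10 on the B6TC arrays, 10.63, 10.64 and 10.62 on those of MDA-MB-231 and 11.28, 11.40 and 11.24 on those of ZR-75-1. B6TC was 0.52 below MDA-MB-231 (SE 0.0503, limma adjusted p = 1.19e-05) and 1.19 below ZR-75-1 at PSME1 (2.29-fold, limma adjusted p = 4.22e-09), so that B6TC was below both.

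**Figure D4:**
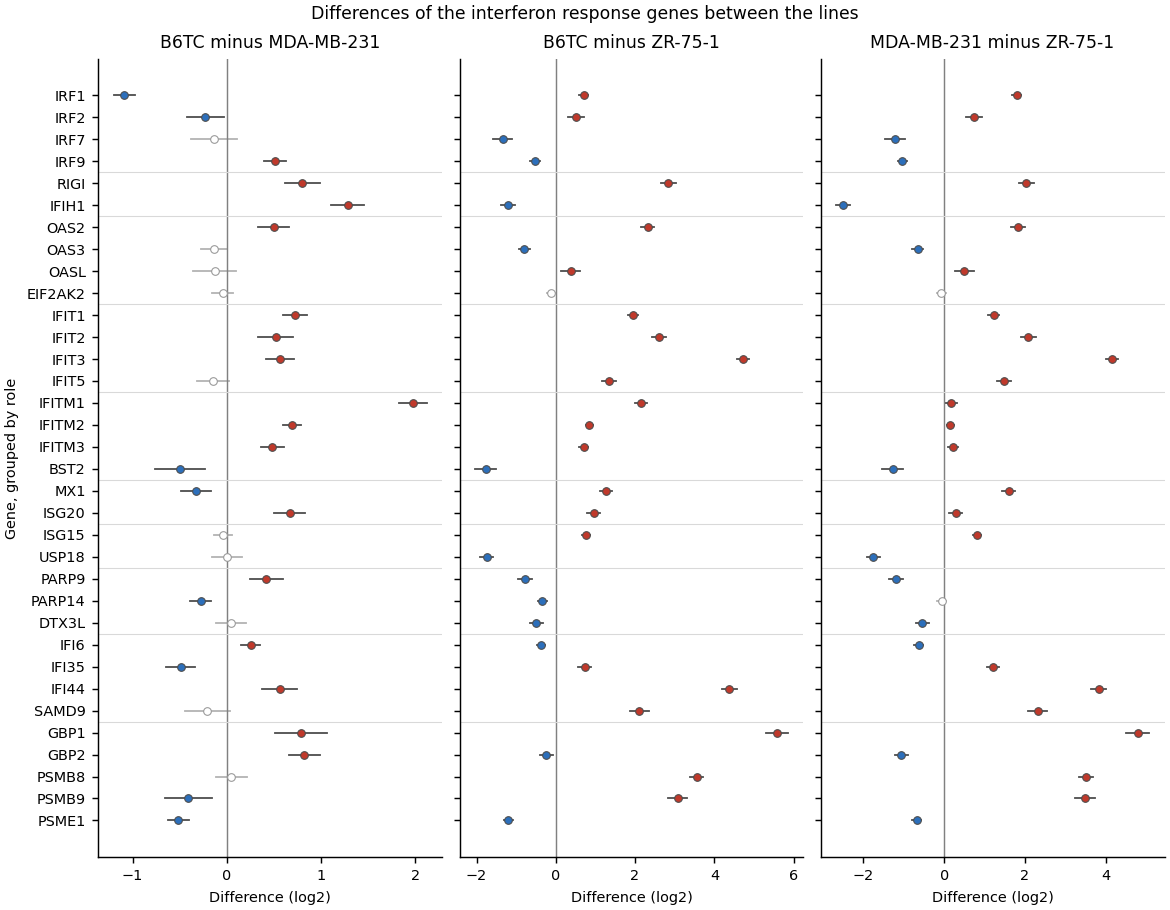
Log2 differences of the 34 tested members in the 3 comparisons, grouped by role, with 95% intervals as bars. Filled points were called (red higher, blue lower in the line named first) and open points were not, and the x axes differ in range. Against MDA-MB-231 the points lie between -1.09 and 1.97, and against ZR-75-1 those of B6TC reach 5.57.

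Placed against both parental lines, 11 of the 34 tested members were called higher in B6TC than in either (32.4%, and 20.1% of all genes), 3 were called lower than in either (8.82%, and 14.6% of all genes) and 10 lay between them and were called from each (29.4%, and 21.8% of all genes). The 11 were IFITM1, RIGI, GBP1, IFIT1, IFITM2, ISG20, IFIT3, IFI44, IFIT2, OAS2 and IFITM3, in order of distance from the nearer line, which fell from 1.97 to 0.483. That line was MDA-MB-231 for each of them. The 3 below both were PSME1, BST2 and PARP14, at 0.516, 0.495 and 0.279. Each of these 14 placements was kept in all 9 fits that left out 1 array, but not under every other setting. With the mean of a gene's tested probe sets 10 were above both, without IFIT2. A filter on level and variation removed PARP14 and left 2 below both. Robust regression gave 12 above both and no filter 13, while quantile normalization again gave 4 below both. Without probe sets that may bind several transcripts, 7 of 23 tested were above both. The shares over all genes were not computed under these settings, so these counts show only how the placements depend on the setting. The IFITM genes may share signal, as said above. Of the 11, 1 was at least 2-fold above both lines by the probe set that represents it, IFITM1. Of the other RIGI probe sets, 1 was 2.61-fold above MDA-MB-231 and 10.1-fold above ZR-75-1. Another was 1.44-fold and 7.82-fold above them.

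The ligands were near background. Probe sets of 15 interferon genes lay between 2.14 and 4.72 on every array and none was tested, with a summed log2 level of 44.4 to 45.5 in B6TC, 45.1 to 46.1 in MDA-MB-231 and 45.5 to 45.7 in ZR-75-1.

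All 6 receptor genes were tested. Between B6TC and MDA-MB-231, IFNGR1, the ligand-binding chain for interferon gamma, was 0.35 higher (limma adjusted p = 0.000289), IL10RB, a chain of the type III receptor, was 0.68 higher (limma adjusted p = 2.02e-05), and IFNGR2, the partner of IFNGR1, was 0.46 lower (limma adjusted p = 1.29e-05). IFNAR1, IFNAR2 and IFNLR1 gave 0.07, -0.17 and -0.07 and were not called. Against ZR-75-1, IFNAR1 (0.44), IFNGR1 (0.77) and IFNGR2 (0.68) were higher in B6TC and IFNAR2 (-0.25) was lower. In MDA-MB-231, IFNAR1 (0.36), IFNGR1 (0.41) and IFNGR2 (1.13) were higher than in ZR-75-1 and IL10RB was lower, by 0.72. Both chains of the interferon gamma receptor were thus higher than in ZR-75-1 in the other lines.

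Of kinases, STATs and inhibitors of the pathway, 10 were tested. B6TC was higher than MDA-MB-231 at 3 and lower at 3 (36.5% and 28.5% of all genes), and higher than ZR-75-1 at 4 and lower at 5 (42.8% and 41.6% of all genes), near the shares over all genes. PTPN2, a phosphatase that acts on JAKs and STATs, was 0.54 above MDA-MB-231, PIAS1, a STAT inhibitor, was 0.37 below it, and PTPN11 was 0.36 above it. Against ZR-75-1, STAT3 was 1.69 higher (3.22-fold), PTPN11 1.44 higher and PTPN6 1.63 lower. JAK1 and JAK2 were lower than in ZR-75-1 by 0.42 and 0.87, and TYK2 was 0.60 higher. Between the parental lines, PTPN6 was 1.38 lower in MDA-MB-231, STAT3 was 1.36 higher and PTPN11 1.07 higher, with 4 genes higher and 5 lower in all. The counts of each direction thus differed by 1 at most in this list.

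Of 16 genes of nucleic acid sensing, 12 were tested. B6TC was higher than MDA-MB-231 at 4 and lower at 4 (36.5% and 28.5% of all genes), and higher than ZR-75-1 at 5 and lower at 6 (42.8% and 41.6% of all genes), also near those shares. AIM2, which senses DNA in the cytoplasm, read 6.87, 6.78 and 6.81 on the B6TC arrays, 6.36, 6.07 and 6.17 on those of MDA-MB-231 and 3.85, 3.83 and 3.33 on those of ZR-75-1. It was 0.61 and 3.15 above the parental lines, the latter perhaps understated as the ZR-75-1 values lay near background. MAVS, the adaptor of RIGI and IFIH1, was 0.60 below MDA-MB-231 and 0.70 below ZR-75-1, and TRAF3, which acts after MAVS, was 0.56 and 1.87 above. STING1, the adaptor of cytoplasmic DNA sensing, was 2.10 above ZR-75-1 in B6TC and differed from MDA-MB-231 by 0.06. Between the parental lines AIM2, STING1 and TRAF3 were 2.53, 2.04 and 1.30 higher in MDA-MB-231, with 4 genes higher and 5 lower in all. In B6TC, relative to MDA-MB-231, the RNAs of the sensors RIGI and IFIH1 were thus higher and that of their adaptor MAVS lower.

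**Figure D5:**
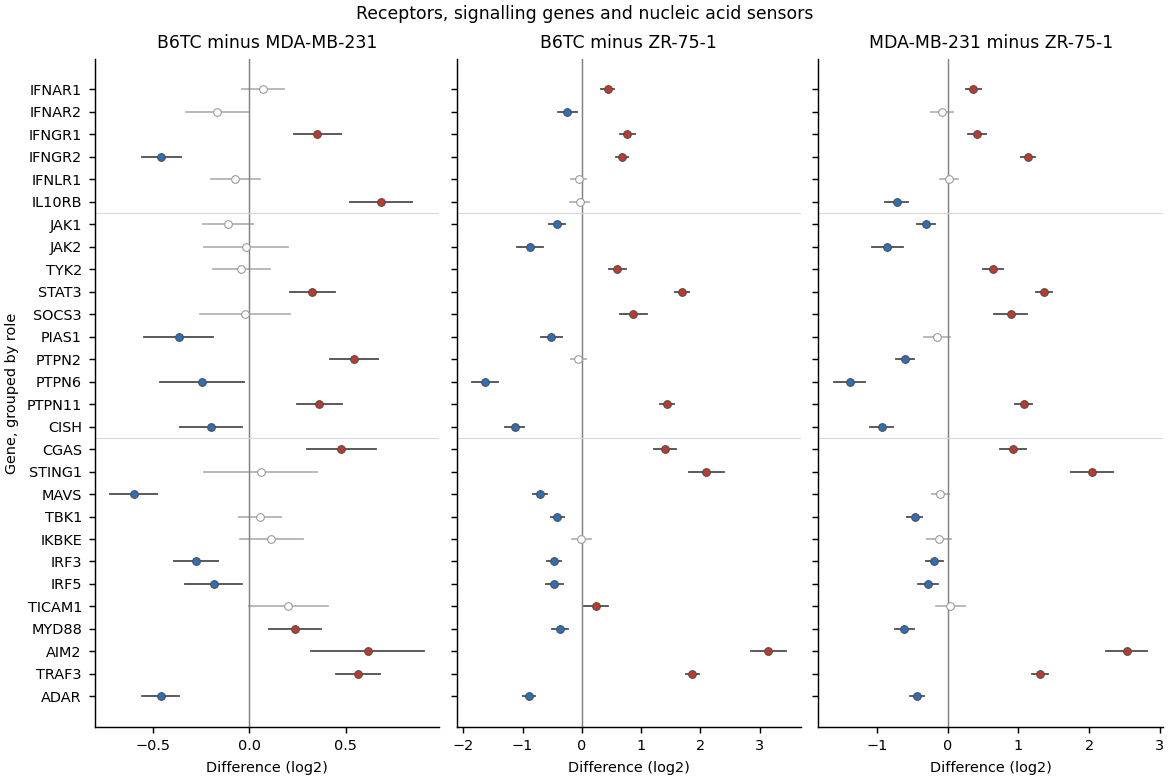
Log2 differences of the 6 receptor genes, 10 signaling genes and 12 nucleic acid sensing genes that were tested, with 95% intervals as bars and open points for differences that were not called. Higher (red) and lower (blue) genes occur in each group. By measured value AIM2 lies farthest from 0 against ZR-75-1, at 3.15 in B6TC. This value may be understated, as the ZR-75-1 values of AIM2 lie near background.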

How the data were processed

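Total RNA of each line was measured on 3 technical replicate arrays. The deposited log2 values are the output of RMA in Affymetrix Expression Console, run by the authors per the submitters' processing notes (versions not given in the sources used here). The methods of the study name GC-RMA instead, so which background correction was applied is not settled. RMA normalizes the arrays to each other, so a shift shared by most genes may not be seen. The deposited values still differed somewhat in distribution, since centering the arrays or quantile normalization again changed small differences. With the latter, EIF2AK2 in B6TC against ZR-75-1 went from -0.11 to -0.20.

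Symbols were updated through the gene table of GRCh38.p14. Of the probe sets, 41091 carried 1 symbol, 1801 several, 11721 none and 62 were controls. Those without controls were filtered at a log2 value of at least 6 on at least 3 arrays, which kept 21095 probe sets (10751 genes) and set aside 33518. The remaining values were fitted in R 4.3.3 (limma 3.58.1) with each line as a group, no covariate, and 6 residual and 3.68 prior degrees of freedom. Adjustment was by Benjamini-Hochberg within each comparison. The fit was checked on simulated data. The median SD over arrays of a line was 0.0788 for tested probe sets and 0.0974 for members, and the number of arrays limits the precision. Arrays of a line differed by a median of 0.0857 to 0.109 per pair.

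The members, the other gene lists and the tests were chosen with earlier results of these data known, so no list was tested as a set. Full statistics are given for the 5 largest called differences of each comparison and for the 5 members farthest above or below both parental lines, and of each further list the genes with the largest called differences are named. Promoters came from RefSeq. Motifs were counted with pandas in Python. Alternatives were other filters, robust regression, other centering and normalization, other rules for probe sets, a fold minimum of 2, a replicate block and leaving out each array.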

Additional observations from a re-analysis of the deposited data

How the results depend on the processing

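Under the alternatives, 198 values of the counts and medians moved little and 28 moved more, and no median changed sign. All 550 values of the fully described differences under alternatives kept their side of the threshold. These differences were chosen from the same data as the largest called ones or the farthest outside the parental lines. Their calls were thus unlikely to change, and this says little about borderline members. With a fold minimum of 2, the members higher and lower in B6TC fell to 2 and 1 against MDA-MB-231 and to 13 and 5 against ZR-75-1, those lower in MDA-MB-231 than in ZR-75-1 to 7, and those with B6TC above and below both parental lines to 1 and 0. Without probe sets that may bind several transcripts, which left 23 members, 12 were higher in B6TC and 12 in MDA-MB-231 relative to ZR-75-1, 7 were above both, and the medians against ZR-75-1 were 0.512 and 0.286. The members' medians with a filter on level and variation were 0.335 for B6TC against MDA-MB-231, 0.805 for B6TC against ZR-75-1 and 0.545 for the parental lines. A filter on variation keeps genes that differ more. Apart from the shares at 2-fold or more given above, shares and medians over all genes were not computed under the alternatives. Quantile normalization again gave 0.663 and 0.344 for the comparisons with ZR-75-1, and centering the arrays gave 0.0847 for B6TC against MDA-MB-231. For the parental lines the median was 0.286 with no filter and 0.466 with a filter at 5. Leaving out 1 array moved the median of B6TC against MDA-MB-231 from 0.0105 (without the third MDA-MB-231 array) to 0.0861 (without the first), that of B6TC against ZR-75-1 from 0.695 to 0.749, and that of the parental lines from 0.307 to 0.449. Of 102 calls of members, 97 were the same in all 9 of these fits. The causes were not tested.

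The same replicate numbers occur in each line. Same-numbered arrays had correlations of -0.102 to 0.176 in their deviations, and differently numbered arrays of -0.21 to 0.225. No pairing by number was thus seen, and the arrays, called technical replicates, were not treated as paired in the main fit. With the number as a replicate block, the median of B6TC against ZR-75-1 was 0.714, as without it, and the call that changed among the members was IRF2 against MDA-MB-231 (limma adjusted p = 0.0667). IRF2 was also not called with no filter, a filter at 5 or centered arrays, and IFITM1 between the parental lines was not called with no filter or after quantile normalization again. Robust regression added calls for IFIT5 and PSMB8 (B6TC against MDA-MB-231), EIF2AK2 (B6TC against ZR-75-1) and PARP14 (parental lines), and quantile normalization again for OAS3 and IFIT5 (B6TC against MDA-MB-231), EIF2AK2 (both lines against ZR-75-1) and PARP14 (parental lines). Technical replicates limit all p-values to these RNA samples, and the filter limits what can be said of values below 6.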

Other observations

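Interferon-induced genes outside the 44 were counted from a further list of 46, of which 29 were tested. B6TC was higher than MDA-MB-231 at 15 and lower at 8 (36.5% and 28.5% of all genes), and higher than ZR-75-1 at 19 and lower at 8 (42.8% and 41.6% of all genes). MDA-MB-231 was higher than ZR-75-1 at 20 and lower at 8 (42.5% and 41.9% of all genes). The list's medians were 0.21, 0.34 and 0.47 in these comparisons, beside 0.0361, -0.00498 and -0.000657 over all genes. IFI16, a nuclear DNA sensor, read 9.83, 9.80 and 9.85 on the B6TC arrays, 9.09, 9.07 and 9.06 on those of MDA-MB-231 and 3.14, 3.09 and 3.39 on those of ZR-75-1. The measured difference from ZR-75-1 was 6.62 in B6TC (limma adjusted p = 4.83e-13) and may be understated, since the ZR-75-1 values lie near background. GBP3, a relative of GBP1, was 4.15 above ZR-75-1 in B6TC. In MDA-MB-231 these genes were 5.87 and 3.88 above ZR-75-1. TRIM5, which blocks retroviral capsids, was 1.26 above MDA-MB-231 (limma adjusted p = 1.76e-06).

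LAMP3, a lysosomal membrane protein, had the opposite order of the parental lines. It read 5.78, 5.48 and 6.08 on the B6TC arrays, 3.37, 3.75 and 4.25 on those of MDA-MB-231 and 9.70, 9.64 and 9.72 on those of ZR-75-1. B6TC was 1.99 above MDA-MB-231 (3.98-fold, limma adjusted p = 1.52e-05) and 3.91 below ZR-75-1, and MDA-MB-231 was 5.90 below ZR-75-1. All MDA-MB-231 values and most B6TC values lay below 6, so LAMP3 was tested through ZR-75-1 and these differences may be understated. LY6E, a membrane protein that alters viral entry, was 1.11 below MDA-MB-231 and 0.96 below ZR-75-1 in B6TC.

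The 9 members that did not pass the filter were OAS1, MX2, RSAD2, IFI27, IFI44L, XAF1, SAMD9L, TRIM22 and DDX60, with 15 probe sets between 2.71 and 6.06 on all arrays. IFI44L, which adjoins IFI44 on the chromosome, read 5.93, 6.06 and 5.95 on the B6TC arrays, 4.68, 4.77 and 4.68 on those of MDA-MB-231 and 3.60, 3.47 and 3.44 on those of ZR-75-1. DDX60, a putative RNA helicase, read 5.65, 5.47 and 5.24, then 4.48, 4.36 and 4.61, then 3.98, 4.09 and 4.10. With no filter, IFI44L was called above MDA-MB-231 by 1.27 (limma adjusted p = 6.48e-07) and DDX60 by 0.97 (limma adjusted p = 4.87e-05). SAMD9L, a relative of SAMD9, was called 0.51 below it (limma adjusted p = 0.0251). Against ZR-75-1, B6TC was called higher at IFI44L (2.48), DDX60 (1.40), SAMD9L (1.30) and TRIM22 (1.22) with no filter. No difference of OAS1 or MX2 was called. As these members did not pass the filter, their differences may be understated. RSAD2 (viperin), IFI27 and XAF1 had values below 4.25 on every array, and no difference of theirs was called with no filter.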
